A study of Mus musculus with 3 samples.

Results

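DLX3 peaks that lay inside protein-coding genes, away from the gene ends and off H3K4me3, numbered 4879 of the 18087 peaks in the DLX3 list (27.0%). The peaks come from ChIP-seq, which sequences the DNA pulled down with an antibody from cross-linked chromatin, on suprabasal keratinocytes, the epidermal cells that have left the basal layer and are differentiating. The mice were wild type on the BALB/c background. The sample labels give them as adult, while the text of the series speaks of neonatal epidermis fractionated on Percoll, and which holds was not settled here. The study made 1 library with an antibody against DLX3, 1 with an antibody against H3K4me3 and 1 with nonspecific IgG, and the IgG library was not analysed here. A peak was taken when it shared no base with any H3K4me3 peak, when its centre fell within the span of a protein-coding gene, and when that centre was over 1 kb from every end of every protein-coding gene (RefSeq genes, mm10). The set was thus selected on the positions of both peak lists, so places relative to H3K4me3 and to gene ends are described without a test. With 1 library per antibody there is no replicate check, and all intervals below are 95% intervals for counting error only. Those on counts, densities and folds of peaks treat each peak as independent, while many peaks shared a host gene. They make no allowance for this and can be too narrow.

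DLX3 is a homeodomain transcription factor of the distal-less family. It is made in differentiating epidermis, hair follicle, tooth and bone, and homeodomains of this kind bind short AT-rich DNA. H3K4me3, trimethylated lysine 4 of histone H3, marks the starts of active genes. Sites of transcription factors inside genes and off this mark are often enhancers, which can act on the gene they sit in or on a distant one. The host gene of a peak is therefore its position here and not its target.

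A few of these peaks covered an annotated transcription start inside the host gene, and there the DNA under the peak can be shown. Windows from 250 bases before to 50 bases after each annotated start (RefSeq, mm10) fell wholly under one of the intragenic peaks 23 times. Of these, 10 were starts of coding genes inside their own annotated span and 13 were starts of long non-coding RNAs. Which start of a coding gene is its main one was not examined. The sequences below are the 5 coding starts whose peak had the highest score, and 1 non-coding start, inside Map7, whose window holds the homeodomain core at several places. They were chosen after their values were seen. Each runs 5′ to 3′ on the strand of the starting gene. Capitals mark the homeodomain core, searched on both strands as TAATTA and as its variant form TAATTG. The AP-1 site, TGACTCA in either orientation, was searched too and is in none of these windows.
Tgm3: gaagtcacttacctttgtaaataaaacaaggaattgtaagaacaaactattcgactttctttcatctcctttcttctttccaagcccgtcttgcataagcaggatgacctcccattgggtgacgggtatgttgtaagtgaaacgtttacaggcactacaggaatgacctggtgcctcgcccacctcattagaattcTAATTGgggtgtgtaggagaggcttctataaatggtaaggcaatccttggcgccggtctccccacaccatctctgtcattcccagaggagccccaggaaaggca
Tgm6: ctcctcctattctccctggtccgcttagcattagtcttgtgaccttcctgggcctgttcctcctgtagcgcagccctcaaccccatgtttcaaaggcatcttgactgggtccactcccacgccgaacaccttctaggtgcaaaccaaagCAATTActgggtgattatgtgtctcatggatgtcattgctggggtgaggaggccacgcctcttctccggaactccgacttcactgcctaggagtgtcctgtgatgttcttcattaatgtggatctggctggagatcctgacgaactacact
Prss53: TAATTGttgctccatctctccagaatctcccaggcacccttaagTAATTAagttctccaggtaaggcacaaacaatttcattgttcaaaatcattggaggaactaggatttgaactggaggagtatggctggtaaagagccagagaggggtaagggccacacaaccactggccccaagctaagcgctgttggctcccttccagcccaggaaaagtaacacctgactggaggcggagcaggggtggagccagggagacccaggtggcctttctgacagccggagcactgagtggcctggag
4930405J17Rik: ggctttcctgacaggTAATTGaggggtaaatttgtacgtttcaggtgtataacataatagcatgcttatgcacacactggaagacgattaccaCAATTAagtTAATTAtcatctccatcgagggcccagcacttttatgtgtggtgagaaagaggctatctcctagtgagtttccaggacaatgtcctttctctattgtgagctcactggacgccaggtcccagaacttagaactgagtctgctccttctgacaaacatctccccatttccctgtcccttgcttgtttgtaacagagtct
Kat2b: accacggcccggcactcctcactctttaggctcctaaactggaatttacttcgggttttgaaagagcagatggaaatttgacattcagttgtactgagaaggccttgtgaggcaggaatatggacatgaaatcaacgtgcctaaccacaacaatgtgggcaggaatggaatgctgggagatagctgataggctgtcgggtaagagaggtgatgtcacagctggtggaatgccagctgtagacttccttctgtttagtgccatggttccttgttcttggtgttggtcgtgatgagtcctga
Pak1: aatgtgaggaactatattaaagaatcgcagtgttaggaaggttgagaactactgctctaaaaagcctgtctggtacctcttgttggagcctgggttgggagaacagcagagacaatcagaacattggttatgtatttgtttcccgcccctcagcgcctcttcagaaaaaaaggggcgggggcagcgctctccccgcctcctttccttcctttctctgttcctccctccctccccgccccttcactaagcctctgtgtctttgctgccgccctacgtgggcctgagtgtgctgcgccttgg

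Tgm3 and Tgm6 encode transglutaminases, and the Tgm3 enzyme cross-links proteins of the cornified envelope. The Tgm3 window (chr2:130012090-130012389, + strand) starts a transcript 24546 bp into the gene span and lies under a DLX3 peak with a score of 113.45. The core stands shortly before the start in this window. The Tgm6 window (chr2:130123025-130123324, + strand) lies under a peak with a score of 99.47. The window of Prss53, a serine protease gene (chr7:127890921-127891220, - strand), lies under a peak with a score of 100.81 and holds the core at its first bases, farthest from the start, and again further in. The window of the non-coding 4930405J17Rik (chr10:20201805-20202104, - strand) lies under a peak of score 117.55 inside Map7, a microtubule-binding protein gene. No core was found in the windows of Kat2b, a histone acetyltransferase gene (chr17:53583876-53584175, + strand; peak score 135.89), or of Pak1, a kinase gene downstream of small GTPases (chr7:97842689-97842988, + strand; peak score 94.03). Among the 23 windows, 8 held the core (34.8%), against 4071 of all 32817 RefSeq start windows of this length (12.4%). The AP-1 site was in 3 of 23 (13.0%), against 1708 of all windows (5.20%). A match is a description of the letters and not a mapped site, and windows so few in number allow no comparison beyond these counts.

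Starts of this kind accounted for little of the set. Only 34 of the 4879 peaks (0.697%, Wilson interval 0.499 to 0.972) were centred within 1 kb of a coding start inside a gene, 1.53-fold the share of gene-interior bases that lies so close to one. Another count, within 1 kb of an annotated non-coding start, gave 52 peaks (1.07%, 0.814 to 1.39), 2.35-fold the share of bases. The start table covered 17492 protein-coding genes, so these are counts over the annotated starts it holds. The hairpins of 2 microRNAs lay under a peak at least in part: Mir664, in the GTPase-regulator gene Rab3gap2 (peak score 67.03), and Mir6931, in Dcakd (peak score 50.79).

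The score of a peak is the authors' own value from the peak caller and can be compared within the DLX3 list alone. Scores of the intragenic peaks without H3K4me3 ran from 50.01 to 706.31, with a median of 75.37 and quartiles of 60.17 and 107.41. Their median width was 581 bp. The nearest H3K4me3 peak was a median of 25422 bp away (quartiles 9041.5 and 60048 bp), and the nearest protein-coding gene end a median of 24160 bp. Peaks just outside and just inside the distance limit were few: the 17 centred up to 100 bp short of it had scores of 52.07 to 193.87 with a median of 69.53, and the 8 centred up to 100 bp beyond it had scores of 50.57 to 177.33 with a median of 90.06. At the other limit, the 12 DLX3 peaks whose edge reached into an H3K4me3 peak by 50 bp or less had a median score of 70.75, and the 8 that stopped 1 to 50 bp short of one had a median of 83.98.

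The score was not used to choose the peaks, and it was lower in this set than in the other DLX3 peaks compared. A score at or above the median of the whole DLX3 list, 83.35, was reached by 41.7% of the intragenic peaks without H3K4me3 (Wilson interval 40.3 to 43.1). Of the 3269 peaks outside genes, without H3K4me3 and over 20 kb from a coding gene end, 46.2% reached it (44.5 to 47.9). The difference was -4.48 percentage points (two-sided Fisher's exact test, p adjusted over 3 comparisons = 9.93e-05). Of the 2052 such peaks 1 to 20 kb outside a gene, 44.8% reached it (42.6 to 46.9), a difference of -3.08 points (Fisher's exact test, adjusted p = 0.0192). The gap to the 1817 peaks inside genes that did touch H3K4me3 was -14.6 points, since 56.3% of those reached the median score (54.0 to 58.6; Fisher's exact test, adjusted p = 6.88e-26). The last group was also wider, with a median of 679 bp, and whether width has a part in its scores was not tested. Peaks of 1 library are not replicates, so these tests describe the list.

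The 10 highest scores sat in 10 different genes. The highest, 706.31, was in Tmem229b, a transmembrane protein gene (chr12:78987410-78988382), and the next, 657.29, in Rab44, a gene of the Rab GTPase family (chr17:29133858-29134903). Pebp4, of the phosphatidylethanolamine-binding protein family, held a peak of 640.46 (chr14:70048511-70049171), and Plxna2, a semaphorin receptor gene, one of 602.39 (chr1:194675352-194676314). Grhl3, which encodes a Grainyhead-like transcription factor of epidermal barrier formation, held a peak of 578.37 (chr4:135565198-135566334) that ended 1300 bp from an H3K4me3 peak, the shortest such distance among the 10. The remaining 5 lay in Plcxd2 (462.96), Ulk4 (462.02), Hsph1 (459.36), Dock8 (457.02) and Abtb2 (445.7), between 5515 and 64163 bp from the nearest H3K4me3 peak.

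The peaks had 2594 host genes among the 18905 protein-coding genes with any interior left once the bases near gene ends and under H3K4me3 were removed (13.7%). A single peak was found in 1601 of the hosts (61.7%) and a pair in 483. There were 510 hosts with 3 or more peaks (2.7% of the genes), and together they held 2340 of the 4879 peaks (48.0%). Spans of different genes overlap in places, so 38 peaks counted in 2 hosts each. Hosts were long genes: the median length was 22.0 kb over all genes with an interior, 77.8 kb over hosts and 157.2 kb over hosts with 3 or more peaks. Over all interiors the peaks stood at 4.98 per Mb, or 1 per 200.9 kb, and this density times the interior length of a gene is called its predicted count below. By that measure 390 hosts had 3 or more peaks and at least 3-fold their predicted count (2.06% of the genes). An interior under 200.9 kb has a prediction below 1, so any such gene with 3 or more peaks passes the 3-fold limit.

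Neighbouring peaks in a host were a median of 14121 bp apart, centre to centre (quartiles 4731 and 37581.5 bp), and 1062 of the peaks (21.8%) had another of the set within 5 kb. The closest centres were 444 bp apart, less than the median peak width of 581 bp. Peaks of the list that nearly adjoin were not merged, so each counts in the numbers per host. Peaks of hosts with 3 or more scored higher than lone ones: the median score was 78.86 with 3 or more peaks in the host and 72.19 with 1 only, and 45.7% against 36.5% reached the median score of the list. The counts per host used every peak whatever its score, so this comparison is of the same peaks seen another way and was not tested.

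**Figure D1:**
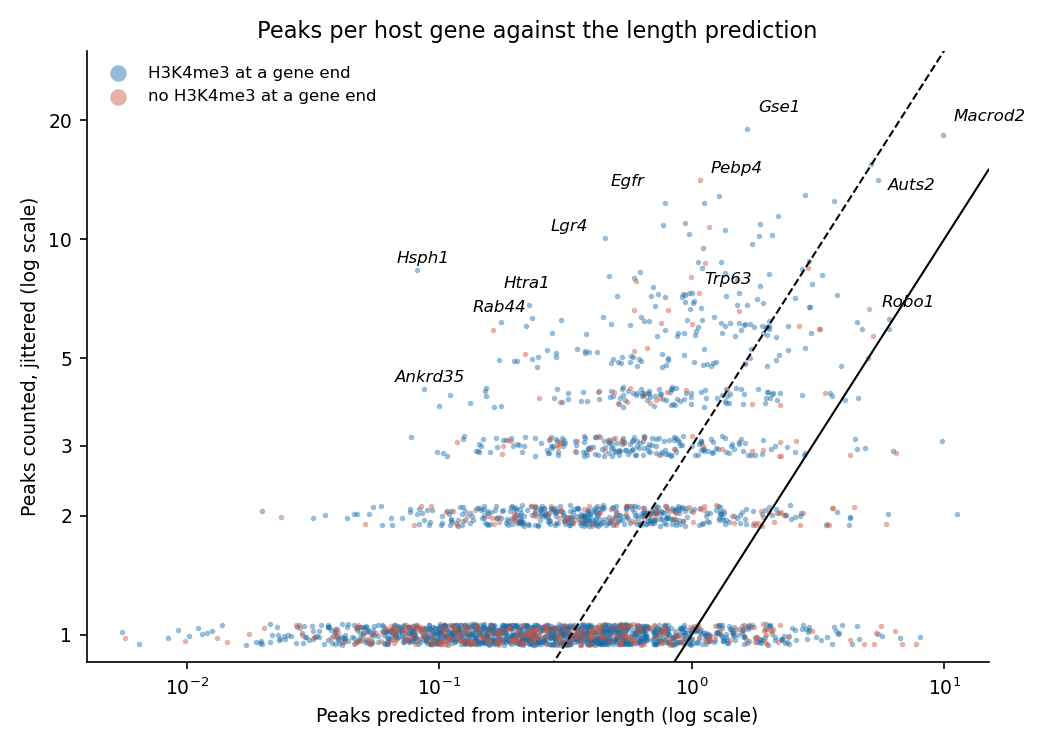
Each point is 1 of the 2594 host genes, with the count predicted from its interior length on the horizontal axis and the peaks counted, with a small random shift, on the vertical axis, both on log scales. The solid line is equality and the dashed line 3-fold the prediction; Hsph1, with 8 peaks for a prediction of 0.0817, has the highest fold among hosts with 3 or more peaks, while Macrod2, with 19 peaks for 9.89, lies between the lines.

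Hosts with the most peaks differed widely in how far they exceeded their predicted count. Gse1, which encodes a coiled-coil protein found with histone deacetylases, had the most peaks, 20, against 1.66 predicted. Macrod2, an ADP-ribose hydrolase gene spanning 1997.7 kb, had 19 against 9.89 (1.92-fold). Lrmda followed with 15 against 5.15 (2.91-fold), and Auts2, a gene studied in brain development, had 14 against 5.46 (2.56-fold). Pebp4 had 14 too, but in 219.5 kb, against 1.08 predicted (13.0-fold).

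There were 4 hosts with 13 peaks. In Egfr, the gene of the epidermal growth factor receptor, the predicted count was 0.783 (16.6-fold), and in Sgms1, which encodes a sphingomyelin synthase, it was 1.28 (10.1-fold). In the other two, the teneurin gene Tenm4 and the methyltransferase gene Smyd3, it was 3.65 and 2.80 (3.56-fold and 4.64-fold). The SUMO ligase gene Nsmce2 had 12 peaks (10.7-fold), as had the synapsin gene Syn3 (5.49-fold). Timp3, an inhibitor of metalloproteinases, lies within the span of Syn3, so its 6 peaks are counted for both genes. In addition, 11 peaks each were found in Kank1 (11.7-fold), Mical3 (9.43-fold) and Msi2 (5.89-fold), which encode an actin-regulating ankyrin-repeat protein, an actin-oxidising enzyme and an RNA-binding protein.

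**Figure D2:**
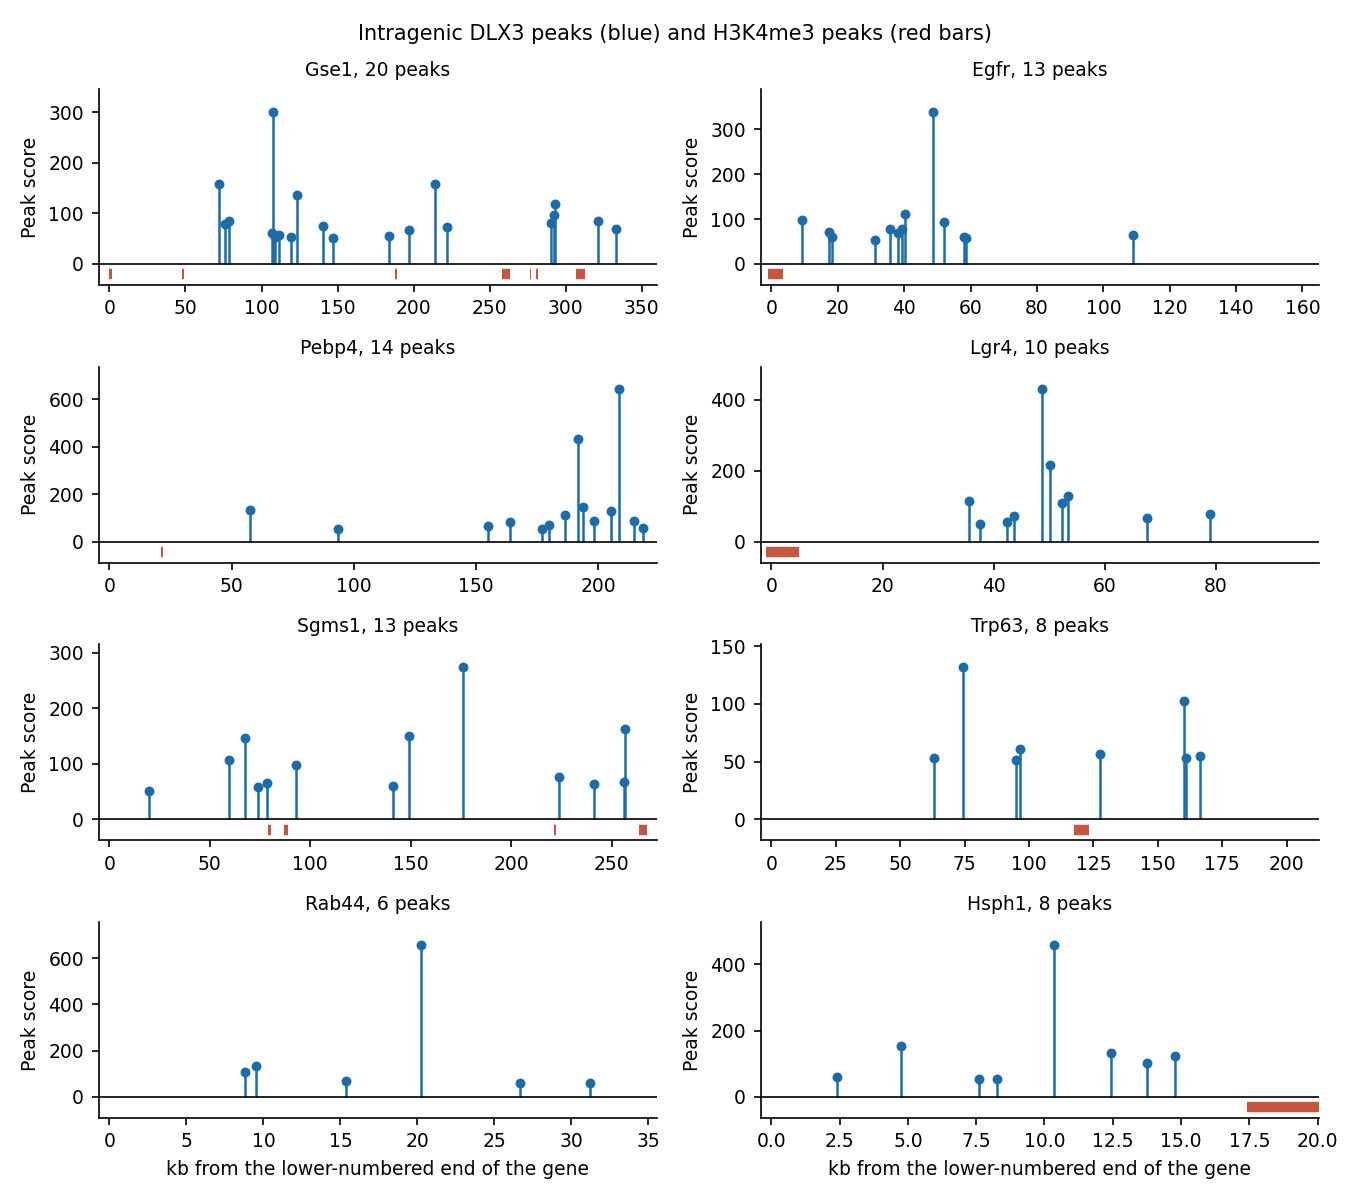
Intragenic DLX3 peaks without H3K4me3 in 8 hosts, placed by distance from the lower-numbered end of the gene in kb (horizontal) and by peak score (vertical); red bars under the axis are H3K4me3 peaks. In Egfr and Lgr4 an H3K4me3 peak covers the start and the DLX3 peaks lie from 9.2 and 35.6 kb inwards, while Rab44 has no H3K4me3 peak.

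Inside Egfr (chr11:16752203-16913907) 12 of the 13 peaks fell between 9.2 and 58.6 kb from the annotated start, and the other at 109.1 kb. The highest, with a score of 339.47, was at 48.5 kb (chr11:16800472-16801032). The scores of the rest lay between 52.67 and 112.08. Some of the 13 nearly adjoin, such as chr11:16769033-16770009 and chr11:16770055-16770616, and are counted separately. An H3K4me3 peak of 4281 bp covered the start, and none of the 13 DLX3 peaks in the span touched H3K4me3. In Gse1 (chr8:120228501-120581383) the 20 peaks began 72.1 kb from the start and spread to 333.4 kb, with a highest score of 300.97 at 107.4 kb. Gse1 also had 7 H3K4me3 peaks in or near its span, and 4 more of its DLX3 peaks touched H3K4me3.

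The Wnt pathway gene Lgr4, which encodes a receptor for R-spondins (chr2:109917647-110014257), had 10 peaks against 0.452 predicted (22.1-fold). They lay between 35.6 and 78.9 kb from the start, and 4 of them, with scores of 428.7, 215.24, 109.28 and 127.21 in order along the gene, stood between 48.6 and 53.5 kb. Trp63, which encodes p63, the transcription factor that sets up and maintains stratified epithelium, had 8 peaks against 0.997 predicted (8.02-fold). Their scores were 53.13, 131.91, 51.08, 60.62, 56.38, 102.51, 53.16 and 55.06 in order along chromosome 16. The sole H3K4me3 peak of Trp63 (chr16:25801153-25807179) was inside the gene and at neither end of its span, with 4 of these DLX3 peaks on one side of it and 4 on the other.

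Pebp4 carried 12 of its 14 peaks between 154.8 and 218.3 kb from the lower-numbered end of its 219.5 kb span, and its only H3K4me3 peak, of score 66.83, lay near the opposite end. In Sgms1 the 13 peaks were spread over the whole gene, from 10.4 to 247.3 kb from the annotated start, with scores from 50.8 to 274.04. Among its 4 H3K4me3 peaks, 1 was at the start and 1 lay only 424 bp from a DLX3 peak of the set. Rab44 had 6 peaks in 34.9 kb, with scores of 106.98, 133.52, 66.89, 657.29, 58.27 and 61.88 along the gene, and no H3K4me3 peak within its span or 1 kb of it.

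The hosts with the highest count over prediction were short for hosts with 3 or more peaks. They ran from 19.7 to 49.5 kb, with a median of 157.2 kb over all such hosts and 22.0 kb over all genes with an interior. Hsph1, a gene of the large heat shock proteins, had 8 peaks in 19.7 kb, 98.0-fold over a prediction of 0.0817. These 8 covered 49.7% of its span and included the widest of the whole set, 3074 bp (chr5:149625663-149628736, score 459.36). Several of the 8 nearly adjoin, such as chr5:149630216-149630971 and chr5:149631005-149632211. Joining such peaks would lower the count and the fold. Ankrd35 had 4 peaks (46.0-fold), Tns4, a tensin gene of focal adhesions, 4 (40.2-fold), and Ifrd1, a transcriptional coregulator gene, 3 (38.8-fold). Dtx2, a Deltex gene of the Notch pathway, had 6 (34.4-fold) with a highest score of 273.59, and Htra1, a secreted serine protease gene, had 7 (31.0-fold) with a highest score of 284.37. Further hosts of this kind were Rab44 (36.7-fold), Slc10a6, Slc5a3, Trit1, Spint2, Itprip, Timp3 and Dcakd, with 3 to 6 peaks and 26.3 to 36.7 times their prediction. The 4 peaks of Slc5a3, an inositol transporter gene, also lie within the gene Mrps6. Genes of this length have a prediction far below 1, so a single added peak moves the fold by a large amount.

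H3K4me3 at the ends of a gene was not part of the rule, which looked only at the bases under the DLX3 peak. Of 12222 genes with an H3K4me3 peak within 1 kb of an end, 2101 were hosts (17.2%), and of 6683 without one, 493 were (7.38%). The density of DLX3 peaks was 6.12 per Mb of interior in the former (exact Poisson interval 5.93 to 6.31) and 2.64 per Mb in the latter (2.46 to 2.83), a ratio of 2.32 (2.15 to 2.50). Genes with H3K4me3 inside only, a division made after the data were seen, had 5.03 per Mb (4.62 to 5.48), and 269 of 1033 were hosts (26.0%). Genes with no H3K4me3 in the span or within 1 kb of it had 1.41 per Mb (1.25 to 1.58), and 224 of 5650 were hosts (3.96%). The signal of IgG in these gene classes was not analysed here.

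**Figure D3:**
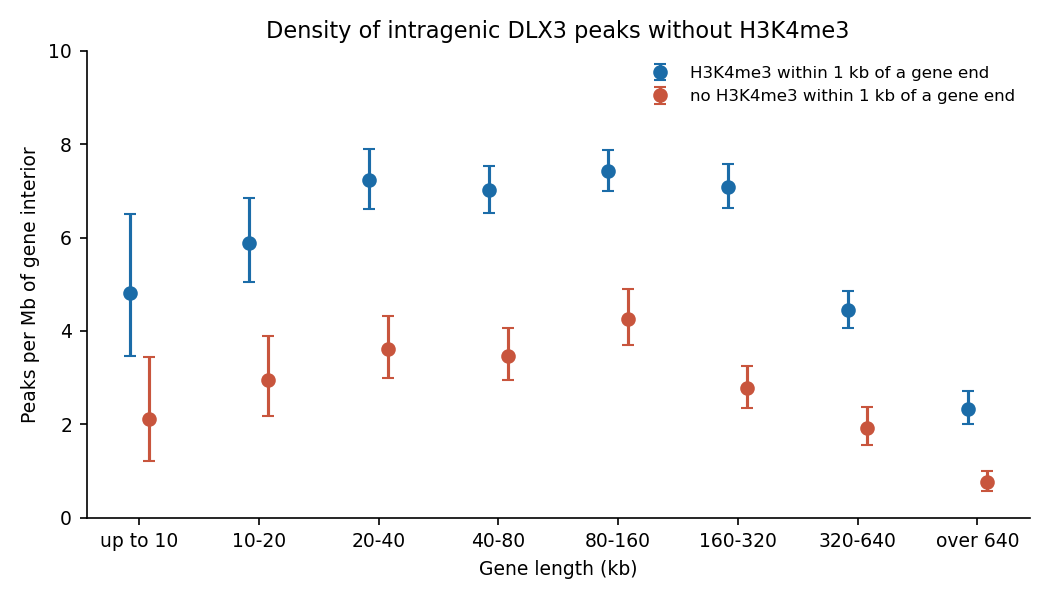
Density of intragenic DLX3 peaks without H3K4me3 per Mb of gene interior, by gene length in kb, for genes with H3K4me3 within 1 kb of an end (blue) and without (red); bars are 95% exact Poisson intervals. Marked genes stand above unmarked ones in all 8 length classes, and both are lower in the classes over 320 kb than in genes of 80 to 160 kb.

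The order held in each length class. In genes of 20 to 40 kb the density was 7.23 per Mb with H3K4me3 at an end and 3.62 without, and in genes of 80 to 160 kb it was 7.42 and 4.26. It was lowest in genes over 640 kb, at 2.34 and 0.774 per Mb. The share of genes that were hosts was higher in longer genes all the same, from 1.11% up to 10 kb to 49.9% between 320 and 640 kb, and was 45.4% beyond.

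The presence of a DLX3 peak within 1 kb of either gene end was compared between hosts and other marked genes. Whether that end was the one with H3K4me3 was not asked. Of the 2101 hosts with H3K4me3 at an end, 972 had a DLX3 peak at an end (46.3%, Wilson interval 44.1 to 48.4). Of the 10121 other marked genes 4586 did (45.3%, 44.3 to 46.3). Within length classes the share was higher in hosts in 4 of 5: 57.6% against 46.7% up to 20 kb, 57.3% against 47.6% between 20 and 40 kb, 47.4% against 39.7% between 80 and 160 kb, and 33.9% against 22.0% over 160 kb. Between 40 and 80 kb it was 44.2% against 46.5%.

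**Figure D4:**
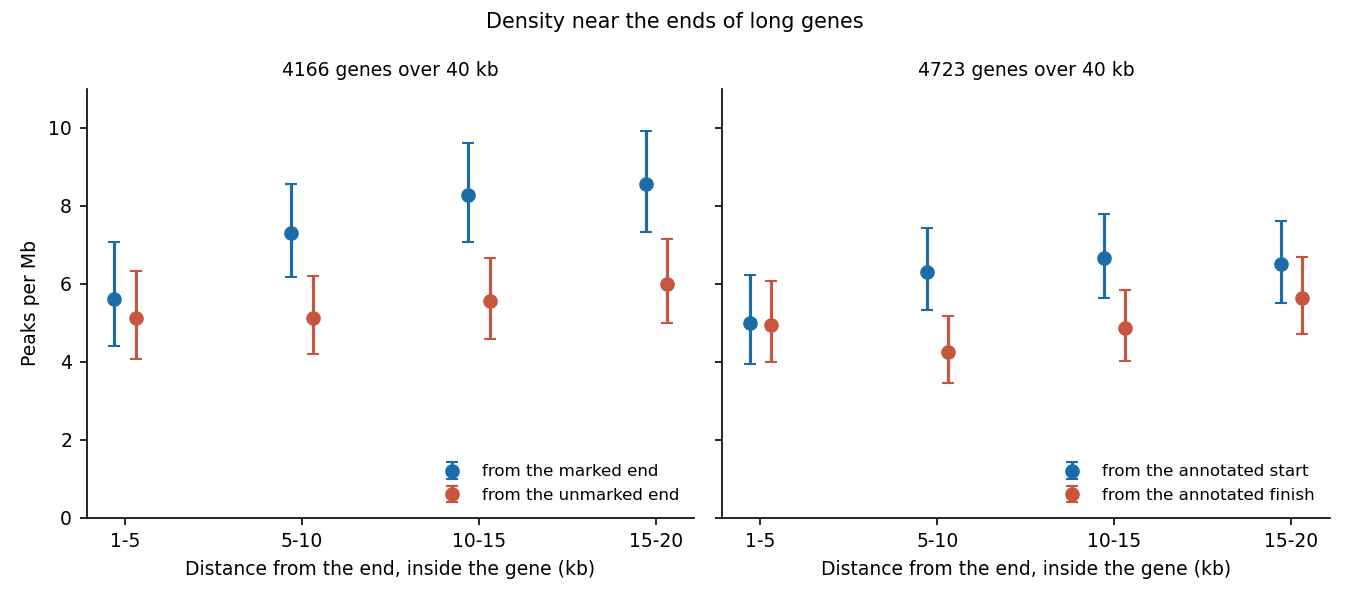
Peaks per Mb in windows 1 to 20 kb inside the ends of genes over 40 kb, from the H3K4me3-marked and the unmarked end of the same 4166 genes (left) and from the annotated start and finish of 4723 genes (right), with 95% exact Poisson intervals. On the left the marked end is higher in each window from 5 kb on, and in the window of 1 to 5 kb the intervals overlap widely.

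Near the ends of long genes, more of the peaks lay inside the marked end than inside the unmarked one. In 4166 genes over 40 kb with H3K4me3 at exactly 1 end, the stretch 1 to 20 kb inside the marked end held 571 peaks, in 473 genes (7.63 per Mb). The stretch at the unmarked end held 429, in 351 genes (5.47 per Mb), a ratio of 1.39 (1.23 to 1.58). At 1 to 5 kb the interval of the ratio, 0.791 to 1.52, includes equality, and between 5 and 20 kb the ratio was 1.43 to 1.49 in steps of 5 kb. Where the annotation gave a strand, the marked end was the annotated start in 3267 of 3302 of these genes (98.9%). Counted from the annotated start and finish instead, in 4723 genes, the windows held 531 and 438 peaks, 1.26-fold (1.11 to 1.43). Over the whole length there was no steady slope. With each of these genes divided into 10 equal parts from start to finish, part 1 held 7.89% of the peaks, part 4 held the most, 12.1%, and part 10 held 8.14%, with no allowance for the bases left out at the ends and under H3K4me3.

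The X chromosome held few of the peaks. Its 804 genes with an interior had 30 peaks in 25 hosts, 0.687 per Mb (0.463 to 0.980), while the autosomes ran from 4.11 per Mb on chromosome 14 to 7.24 per Mb on chromosome 11. The labels do not give the sex of the animals.

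Gene lists drawn up for keratinocytes and for other cells were then described by their hosts, and each is set beside the share of hosts that genes of the same length class and H3K4me3 class had. Among 66 keratinocyte transcription factor genes 37 were hosts (56.1%, with 25.2% for genes of like length and mark), with 128 peaks against 36.4 predicted from length (3.52-fold, interval 2.94 to 4.19). Foxp1, a forkhead factor, and Tead1, the partner of Hippo pathway coactivators, had 9 each (3.10-fold and 8.12-fold), Trp63 had 8 and the nuclear factor I gene Nfib 7 (6.92-fold). Among 59 genes of the cornified envelope, keratinisation and the lipid barrier 22 were hosts (37.3%, with 16.1%), with 57 peaks (3.95-fold, 2.99 to 5.12). Beside Sgms1 these were led by Krt78, a keratin gene, with 5 peaks (22.9-fold, highest score 285.88), and by Cers3, which makes the ceramides with very long acyl chains of the barrier, with 4 (9.42-fold). Neither had H3K4me3 at an end of its annotated span. Abcc1, a transporter gene, had 3.

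Signalling genes of the Notch, Wnt, BMP, TGF-beta and Hippo pathways gave 41 hosts of 83 (49.4%, with 27.1%) and 112 peaks (3.38-fold, 2.78 to 4.06). After Lgr4 came Gli2, with 9 peaks against 1.06 predicted. It is a transcription factor of Hedgehog signalling, a pathway that the list holds genes of without naming it. Tle4, a Groucho corepressor, had 6 (8.24-fold) and Maml3, a Notch coactivator, had 6 (2.99-fold). EGF receptor and MAP kinase genes gave 23 hosts of 75 (30.7%, with 26.5%) and 77 peaks (1.83-fold, 1.44 to 2.28), or 1.55-fold once Egfr was left out. Protein kinase C genes followed Egfr, with 8 peaks in Prkca, 7 in Prkch, the isoform of differentiating epidermis, and 6 in Prkce.

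Genes of adhesion were hosts more often than their length class as well. Hemidesmosome, integrin and basement membrane genes gave 16 hosts of 35 (45.7%, with 28.3%) and 44 peaks (2.57-fold, 1.86 to 3.44). Itgb6, an epithelial integrin subunit, had 8 (13.3-fold), with scores of 56.38 to 187.54 and no H3K4me3 at an end. Dst and Lamc1 had 4 each. Cell junction genes gave 24 hosts of 50 (48.0%, with 24.1%) and 56 peaks (1.74-fold, 1.31 to 2.26), led by the scaffold gene Magi1 with 8 (2.67-fold) and by Nectin1, an adhesion receptor, with 6 (21.4-fold). The tight junction gene Tjp1 had 5 (4.46-fold), and Pard3b had 5, equal to its prediction.

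**Figure D5:**
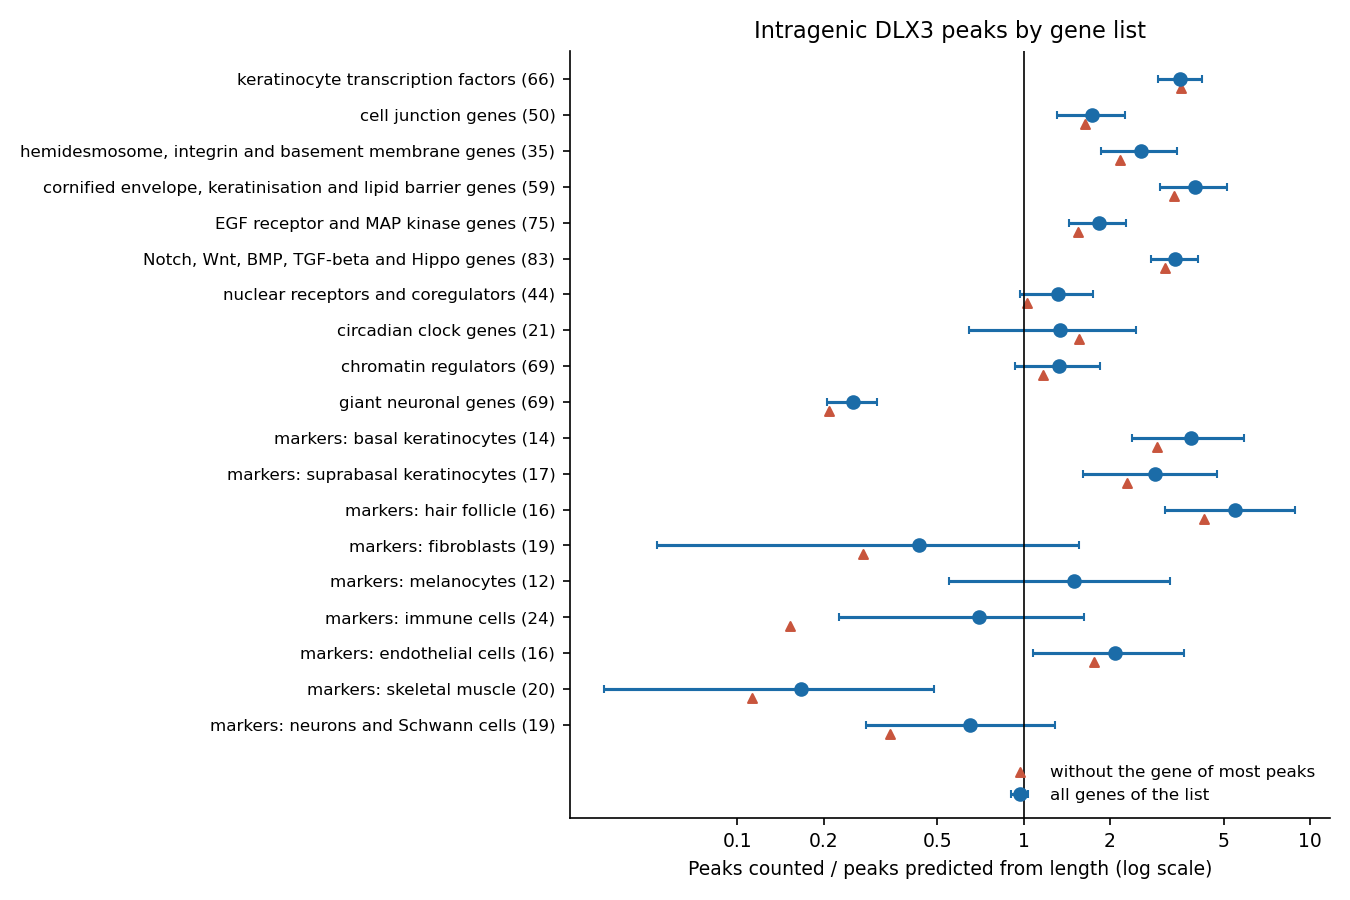
Intragenic DLX3 peaks counted in each of 19 gene lists over the number predicted from length (log scale), with 95% exact Poisson intervals; triangles leave out the gene with most peaks, and the number of genes with an interior is in brackets. Lists of keratinocyte genes lie to the right of 1 and skeletal muscle markers and giant neuronal genes to the left. The prediction uses the same density for genes of every length and chromosome, and the share of hosts among skeletal muscle markers was not low. Endothelial markers (2.09, 1.08 to 3.64) lie to the right too, as does the point of melanocyte markers (1.49, 0.548 to 3.25). For melanocyte markers no triangle is drawn, since the value without Mitf is 0.

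Nuclear receptors and coregulators gave 17 hosts of 44 (38.6%, with 27.6%) and 47 peaks (1.32-fold, 0.968 to 1.75). Vdr, the vitamin D receptor gene, had 5 peaks all the same (20.5-fold), and so had its partner Rxra (12.8-fold). Rarb had 6 (1.86-fold). Chromatin regulators gave 20 hosts of 69 (29.0%, with 28.5%), with 5 peaks each in Arid1b and Kat2b, 4 in Chd7 and 3 in Tet2. Circadian clock genes gave 6 of 21 (28.6%, with 18.2%) and 10 peaks (1.34-fold, 0.644 to 2.47), 4 of them in Rora, 2 in Arntl and 1 each in Nfil3 and Npas2. Giant neuronal genes had 26 hosts of 69 (37.7%, with 45.6%) and 99 peaks against 392 predicted (0.252-fold, 0.205 to 0.307), which included Macrod2, Auts2, Tenm4 and Robo1, the last with 7 (1.39-fold). Genes over 640 kb as a class, marked and unmarked together, also stood low, at 1.56 peaks per Mb (1.37 to 1.78) against 4.98 over all interiors. The list had a median length of 1098 kb, so many of its genes are among the 141 of this class. The list and the class are therefore not separate comparisons.

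Markers of the cell types that skin preparations can hold showed the following. Basal keratinocyte markers had 21 peaks (3.85-fold, 2.38 to 5.89), in Trp63, Cd44 (4), Dst (4) and Itga6 (2) among 6 hosts of 14 (42.9%, with 21.7% for genes of like length and mark). Suprabasal markers had 15 (2.87-fold, 1.61 to 4.74) in 7 hosts of 17 (41.2%, with 16.5%), with Cers3, Tgm3 (3), Grhl1 (2) and Grhl3 (2) among them. Hair follicle markers had 16 (5.48-fold, 3.13 to 8.89) in 6 hosts of 16 (37.5%, with 15.4%): Edar, the ectodysplasin receptor gene of hair placodes, had 5 (14.2-fold, highest score 285.68), and the stem cell markers Lgr6, Lgr5 and Lrig1 had 4, 3 and 2. H3K4me3 stood at an end of 13 of 16 basal, 15 of 20 suprabasal and 19 of 20 hair follicle markers. The Wilson interval of the share of hosts was 21.4 to 67.4% in basal markers, which includes the 21.7% of like genes. It was 21.6 to 64.0% in suprabasal and 18.5 to 61.4% in hair follicle markers, above the shares of like genes. Predicted by H3K4me3 class, the peak counts were 3.66-fold for basal, 3.65-fold for suprabasal and 4.54-fold for hair follicle markers.

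Skeletal muscle markers had 3 peaks (0.166-fold, 0.0343 to 0.486), 1 each in Ldb3, Myh7 and Ryr1, so that 3 of 20 were hosts (15.0%, with 14.5%). With the prediction made by H3K4me3 class the value was 0.290-fold. The low fold was not mirrored in the share of hosts, which was no lower than in genes of like length and mark. The prediction from length used 1 density for all genes, while genes over 640 kb (1.56 per Mb) and X chromosome genes (0.687 per Mb) had fewer peaks. Whether any such genes among the muscle markers account for the low fold was not tested. Fibroblast markers had 2 peaks against 4.64 predicted, in Fap and Fbn1, or 2 hosts of 19 (10.5%, with 14.9%). Markers of neurons and Schwann cells had 8 (0.652-fold, 0.281 to 1.28), of which 4 in the myelin gene Mbp, 2 in Mapt and 1 each in Ncam1 and Rbfox3, or 4 hosts of 19 (21.1%, with 23.8%). Melanocyte markers had 6, all in Mitf, the melanocyte transcription factor gene (5.68-fold), so 1 of 12 was a host (8.33%, with 15.6%). Immune markers had 5 (0.697-fold, 0.226 to 1.63), 4 in Prkcq and 1 in Runx3, or 2 hosts of 24 (8.33%, with 12.2%). Endothelial markers had 12 peaks in 6 hosts of 16 (37.5%, with 19.5%; 2.09-fold, 1.08 to 3.64), in Pecam1 and Vwf with 3 each, Flt1 and Ptprb with 2 each and a pair of others with 1. Counting only peaks over 5 kb from every gene end, the endothelial value was 1.34-fold. The Wilson interval of the endothelial share of hosts, 18.5 to 61.4%, includes the 19.5% of like genes. H3K4me3 stood at an end of 13 of 20 fibroblast, 5 of 12 melanocyte, 5 of 25 immune, 4 of 16 endothelial, 3 of 20 muscle and 14 of 20 neuronal markers. What share of the chromatin came from other cells, and its part in the counts above, was not tested.

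Genes without any H3K4me3 in the span or within 1 kb of it were 5650 of the 18905 with an interior. Their median length was below the 22.0 kb over all genes with an interior, while hosts with 3 or more peaks had a median of 157.2 kb. The count that follows makes no allowance for length. Of the 510 hosts with 3 or more peaks, 12 had no such H3K4me3. They were Fam178b, with 7 peaks against 0.590 predicted (11.9-fold), Rab44 and Adgrv1, with 6 each (36.7-fold and 2.25-fold), Trpm1, Ano2 and Slc14a2, with 4 each, and Gm826, Bco1, Tmprss11e, Fabp12, Pecam1 and Tgm3, with 3 each. Tgm3, whose internal start is shown above, had its peaks 21.6, 24.4 and 59.4 kb from the annotated start, with scores of 70.78, 113.45 and 76.37. The nearest H3K4me3 peak to any of them was 129016 bp away.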

How the data were processed

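ChIP-seq of suprabasal keratinocytes gave 2 deposited peak lists on mm10, for DLX3 and H3K4me3. The authors used Bowtie 1.1.2, MACS 1.4.2 and HOMER, per the submitters' processing notes, with settings not given in the sources here. The deposited score of each peak is the authors' peak caller value, 1 list per library, and depth is unknown. Both lists carry IgG in their names, but no label says what part it had in the calls or the scores.

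Peaks were set against protein-coding spans of a RefSeq gene table (GRCm38.p6, the assembly of mm10); strand and internal starts came from RefSeq start windows, and exons and introns were not separated. Overlap meant 1 bp or more. Gene interiors left out bases within 1 kb of a coding gene end or under H3K4me3. Densities by H3K4me3 class over all lengths counted each base and peak once. Those by length class, chromosome, gene list and end window, and the 4.98 per Mb, counted them for each gene that held them. Intervals were Wilson, exact Poisson or, for ratios of counts, exact binomial; Fisher's exact test compared scores, adjusted by Benjamini-Hochberg over 3 comparisons (threshold 0.05). Tools were Python 3.11.15, pandas 2.3.3 and scipy 1.17.1, and the steps were tested on simulated data. The peaks and the 20 gene lists, 9 of them cell type markers, were chosen with earlier results of these data known. Named genes are the hosts of the 10 highest scores, the 15 hosts with most peaks, the 15 with the highest count over prediction among those with 3 or more, the 4 genes with most peaks in each list, and Trp63; a few genes that the rule takes, and 1 of the lists, are not reported here. Genes named outside this rule were chosen after their values were seen, namely hosts without H3K4me3 and those of printed starts and microRNAs. Alternatives covered score limits, distance limits, H3K4me3 margins and the prediction.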

Additional observations from a re-analysis of the deposited data

How the results depend on the processing

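No paired analysis was possible because each antibody has 1 library. The planned motif search in the peaks was not run, since no genome sequence was used here. With DLX3 peaks at or above the median score there were 2035 intragenic peaks without H3K4me3, 1340 hosts, 167 with 3 or more and 157 of these at 3-fold or more; with the top 20% of scores, 685, 548, 26 and 26, a 2.58-fold density in marked genes, and 1.18 (0.829 to 1.69) for marked over unmarked ends, an interval that includes equality. Fewer peaks enter these counts by construction, and the prediction falls with them, so 3 peaks reach 3-fold in longer genes too. At or above the median score the lists of nuclear receptors (0.805-fold) and clock genes (0.643) fell below prediction, neurons and Schwann cells (1.17) and immune markers (1.00) no longer did, and fibroblast markers had 0. Immune markers were at 1.03 when predicted by H3K4me3 class and at 0.153 without Prkcq, and melanocyte markers at 0 without Mitf; apart from the predictions that leave out a gene, the cause was not tested. Melanocyte markers were at 2.98 at or above the median score, fibroblast markers at 0.246 over 5 kb from gene ends and 0.275 without Fbn1, and neurons and Schwann cells at 0.341 without Mbp. Of the list values under alternatives, 72 kept their side of the prediction and stayed within the interval, 6 crossed it and 2 left the interval; of the other values, 26 moved by less than the interval or 1.5 times and 10 by more. Leaving out a gene, and margins round H3K4me3 for the ratios, were chosen after seeing the data.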
